A study of Trichoderma cf. simile with 24 samples.

Results

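Trichoderma cf. simile WF8, a filamentous fungus, was grown in shake flasks, and its mycelium was compared 3 days after the addition of 9,10-dibutoxyanthracene with mycelium from control flasks of the same day. The comparison uses 6 of the 24 RNA sequencing libraries of the series, 3 flasks with the compound and 3 control flasks, chosen by their labels alone. All 13298 loci of the count table entered, and 10842 of them passed the filter on low counts and were tested. All groups share the strain, a single isolate from decaying wood near a coal mine, and the pre-culture of 60 h at 29 °C in maltose and peptone broth. The compound was added to a final concentration of 5 mg/L from a stock of 0.2 g/L in dichloromethane, which by these figures makes up 2.5% of the culture volume. Whether the control flasks received dichloromethane, or the copper, manganese and veratryl alcohol that the treatment text lists as additions, is not stated in the sources, so the compound and its solvent cannot be told apart. The series also holds phenetole at 200 mg/L, 4-phenoxybenzoic acid at 10 mg/L, and day 1 samples of every culture type.

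The study used the compound as a model of lignite, brown coal rich in aromatic rings and ether bonds. The molecule is a fused aromatic ring system that carries butoxy side chains through ether bonds. Filamentous fungi that live on wood attack such material with secreted oxidative enzymes and with enzymes inside the cell that open ether bonds and rings. In these fungi, genes that act in a single pathway, such as the making of a secondary metabolite, often lie side by side on a chromosome and are switched on together. The files pair 0 of the locus IDs with a gene name or function, so neither enzyme families nor markers of mycelium or conidia could be scored. Loci are therefore described by ID, length, level and place in the gene numbering, and sequences were not analysed here.

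The libraries of the comparison held between 18033101 and 19842379 counts with the compound and between 18271484 and 19570576 in the control, and between 11412 and 11568 against 11270 and 11560 loci had at least a single count. Levels are in CPM, that is, counts divided by the TMM-normalized size of their library and brought to a common scale, as mean ± SD of 3 flasks, or for flasks 1, 2 and 3 in that order. The control flasks varied more than the flasks with the compound: the median SD over tested loci was 0.252 with the compound and 0.363 in the control on the log2 CPM scale. Flask 3 of the control stood apart most, with 139 loci at least 4-fold above and 110 at least 4-fold below both other control flasks. Control flask 1 was at least 4-fold below both other control flasks at 86 loci, and 44 of these were called lower, beside 10.8% of all loci tested. Among the compound's flasks, flask 2 had 36 loci at least 4-fold above both others. Of these, 10 were among the loci called higher, beside 5.24% of all loci tested.

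With 9,10-dibutoxyanthracene, 568 loci rose and 1172 fell at day 3, so falls outnumbered rises. The edgeR quasi-likelihood test called a locus at an adjusted p under 0.05, which took in 16.0% of the loci tested, 5.24% higher and 10.8% lower. By size, 445 of the risers and 902 of the fallers differed at least 2-fold, 146 and 313 at least 4-fold, and 12 and 39 at least 16-fold. The median change of a riser was 1.35 and that of a faller −1.44 on the log2 scale, while the median over all loci tested was −0.02. Of the risers, 537 had all 3 compound flasks above all 3 control flasks, and of the fallers, 1120 had all 3 below. Such separation was common, since 42.7% of all loci tested showed it in either direction, 19.6% above and 23.0% below.

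Loci at every level took part. Among the 25% of tested loci with the lowest level, up to 3.58 CPM, 65 rose (2.4%) and 205 fell (7.56%). Among the 25% with the highest level, above 69.6 CPM, 196 rose (7.23%) and 321 fell (11.8%). In between, 130 rose (4.8%) and 351 fell (13.0%) from 3.58 to 19.0 CPM, and 177 (6.53%) and 295 (10.9%) from 19.0 to 69.6 CPM. The share of fallers was thus largest from 3.58 to 19.0 CPM. The median SE of a log2 change was 0.713 among the lowest and 0.292 among the highest, so that a change of a given size could be seen less well at low levels. Risers had a median length of 1910 bp and fallers of 1737 bp, beside 1578 bp over all loci tested.

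The count depended on single flasks and on the method. It was 703 without compound flask 2, 779 without compound flask 3 and 900 without control flask 2 (1356 without control flask 3, which stood apart), and without the first 3 of these flasks the fit shared 39.7%, 43.9% and 51.3% of the 1740 calls. The balance of directions moved too, with 939 loci higher and 1011 lower by limma on log2(FPKM + 1), so that 48.2% of calls were higher, against 32.6% by edgeR.

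**Figure D1:**
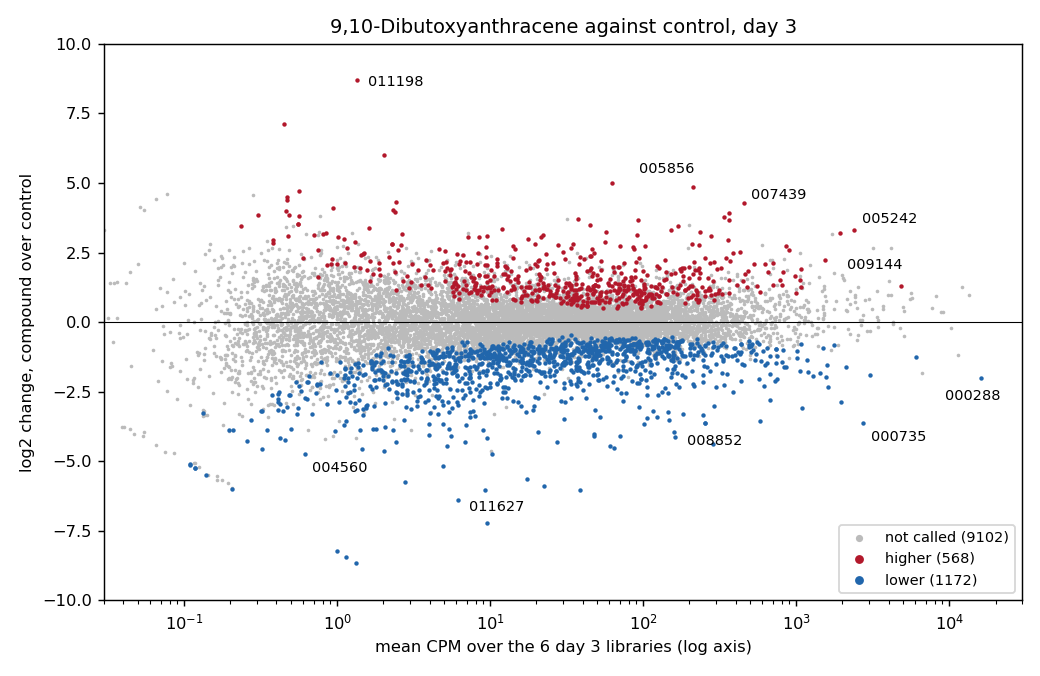
Log2 change of each tested locus at day 3, 9,10-dibutoxyanthracene over control, against its mean level in CPM over the 6 libraries (log axis), with the 568 loci called higher in red, the 1172 called lower in blue and the 9102 others in grey; 13 loci below 0.03 CPM, 0 of them called, lie left of the axis. Calls reach from loci under 1 CPM to Trisim1_000288, and numbers mark loci described in the text.

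Trisim1_005856 had the smallest p-value among the risers. This locus (3383 bp) stood at 312, 351 and 561 CPM with the compound, against 20.8, 14.5 and 7.11 CPM in the control. All compound flasks lay far above all control flasks, a 26.2-fold difference, and the log2 rise was 4.84 ± 0.53 (SE; adjusted p = 9.08e-05, edgeR). Trisim1_003322 (2793 bp) stood at 539, 646 and 782 CPM with the compound, against 112, 124 and 118 CPM in the control, a rise of 2.47 ± 0.33 on the log2 scale (adjusted p = 0.000325). Its control flasks lay close together. At Trisim1_011839 and Trisim1_005049, which rose by less, the compound flasks lay closer together for their level than the control flasks. Trisim1_011839 (1395 bp) averaged 478 ± 25.5 CPM with the compound and 128 ± 24.1 CPM in the control, and Trisim1_005049 (1983 bp) 71.6 ± 6.00 and 18.7 ± 4.39 CPM (SD, n = 3). These 4 loci, the risers with the smallest p-values among those with separated groups, also passed a test against a 2-fold change.

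The largest rises belonged in part to loci that were nearly silent in the control. Trisim1_011198 (1765 bp) had 0 counts in all control flasks and 0.672, 5.85 and 1.56 CPM with the compound, at least 55.3-fold higher against a floor of 3 counts over the control group (adjusted p = 0.00187, edgeR). It was the only locus at 0 in all 3 control flasks with at least 10 counts in each compound flask, and 0 loci showed the reverse. Trisim1_005936 (2164 bp) stood at 3.98 ± 2.77 CPM with the compound, against 3 counts over the control flasks, 72-fold more, with 24.3 to 352 as the 95% counting interval (adjusted p = 0.0387). Its call was lost whenever any of the 6 flasks was left out, and with DESeq2. Trisim1_002900 (453 bp), at 1.09 ± 0.712 CPM with the compound against 2 counts over the control flasks, was 32.8-fold higher, with 8.69 to 277 as the interval (adjusted p = 0.0195). Trisim1_010169 (3642 bp) stood at 4.87, 5.54 and 2.71 CPM with the compound and 0.217, 0.294 and 0.276 CPM in the control, a 17.4-fold rise (adjusted p = 0.0141). The calls of both were lost without compound flask 2, control flask 1 or control flask 2, with adjusted p-values up to 0.0906 for Trisim1_002900 and up to 0.0547 for Trisim1_010169.

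Other large rises led to high levels. Trisim1_007439 (3882 bp) stood at 435, 600 and 1562 CPM with the compound, against 47.5, 56.2 and 29.2 CPM in the control, 17.7-fold higher (adjusted p = 0.00244, edgeR). Trisim1_000906 (339 bp) stood at 487, 585 and 969 CPM, against 20.2, 53.8 and 61.7 CPM in the control, 15.6-fold higher (adjusted p = 0.00454). In both, compound flask 3 was the highest, and the groups did not overlap, which the choice of these loci required. Trisim1_009130 (1074 bp) ranged widely with the compound, at 11.0, 250 and 99.0 CPM, and sat at 2.99, 3.23 and 5.18 CPM in the control (34.6-fold higher, adjusted p = 0.00209). Trisim1_006400 (1450 bp) had a 22.5-fold rise (adjusted p = 0.0164) in which compound flask 2 held 11.9 CPM while flasks 1 and 3 held 0.896 and 1.01 CPM, against 0.303, 0.0489 and 0.345 CPM in the control; its call was lost without that flask, without control flask 2 and by limma on log2(FPKM + 1).

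The falls were steepest at loci of modest level. Trisim1_011627 (2792 bp) fell to 0.168, 0 and 0.271 CPM with the compound, against 3.73, 19.8 and 12.9 CPM in the control, 86.9-fold lower (log2 change −6.39 ± 1.25, adjusted p = 0.00249, edgeR). Its neighbour in the numbering, Trisim1_011626 (1684 bp), fell to 0, 0.205 and 0.0677 CPM, against 1.13, 6.46 and 8.63 CPM, 50.9-fold lower (adjusted p = 0.00504). For both loci control flask 1 was the lowest control, and the choice of loci required it to lie above every compound flask. Trisim1_004560 (1695 bp) had even controls of 1.30, 1.08 and 1.17 CPM and only 2 counts over the compound flasks, 31.0-fold lower, with 8.26 to 261 as the interval (adjusted p = 0.000661). Trisim1_003664 (1873 bp), Trisim1_007838 (600 bp) and Trisim1_004523 (938 bp) fell 25.5-fold, 17.8-fold and 19.4-fold, to 0.148 ± 0.213, 0.215 ± 0.186 and 0.653 ± 0.409 CPM with the compound, against 3.91 ± 2.39, 4.65 ± 3.68 and 12.9 ± 10.0 CPM in the control. Their adjusted p-values (edgeR) were 0.00411, 0.0089 and 0.00213.

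Other loci fell from higher levels. Trisim1_001797 (1139 bp) stood at 9.80, 4.05 and 1.96 CPM with the compound, against 62.2, 188 and 98.8 CPM in the control, 21.3-fold lower (adjusted p = 0.0123, edgeR), and its call was lost without compound flask 2 or 3 (adjusted p = 0.0640 and 0.0651). Trisim1_000441 (1584 bp) stood at 39.1, 22.1 and 16.6 CPM, against 126, 818 and 687 CPM, 19.3-fold lower (adjusted p = 0.0297), but its call was lost without any single compound flask, without control flask 2 and without control flask 3. The 4 fallers with the smallest p-values among those with separated groups had compound flasks close together. Trisim1_008852 (3026 bp) stood at 41.1, 34.8 and 35.9 CPM with the compound, against 324, 334 and 742 CPM in the control, a log2 change of −3.65 ± 0.49 (adjusted p = 0.000325). Trisim1_008282 (3236 bp) stood at 34.6, 40.4 and 42.9 CPM, against 177, 174 and 152 CPM (−2.09 ± 0.25, adjusted p = 0.000176). Trisim1_011593 (3144 bp) averaged 2.14 ± 0.258 CPM with the compound and 16.2 ± 2.67 CPM in the control (adjusted p = 9.08e-05), and Trisim1_002254 (3644 bp) 3.46 ± 0.576 and 24.7 ± 15.6 CPM (adjusted p = 0.000176). All 4 passed the test against a 2-fold change, which 90 loci passed in all, 13 higher and 77 lower.

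**Figure D2:**
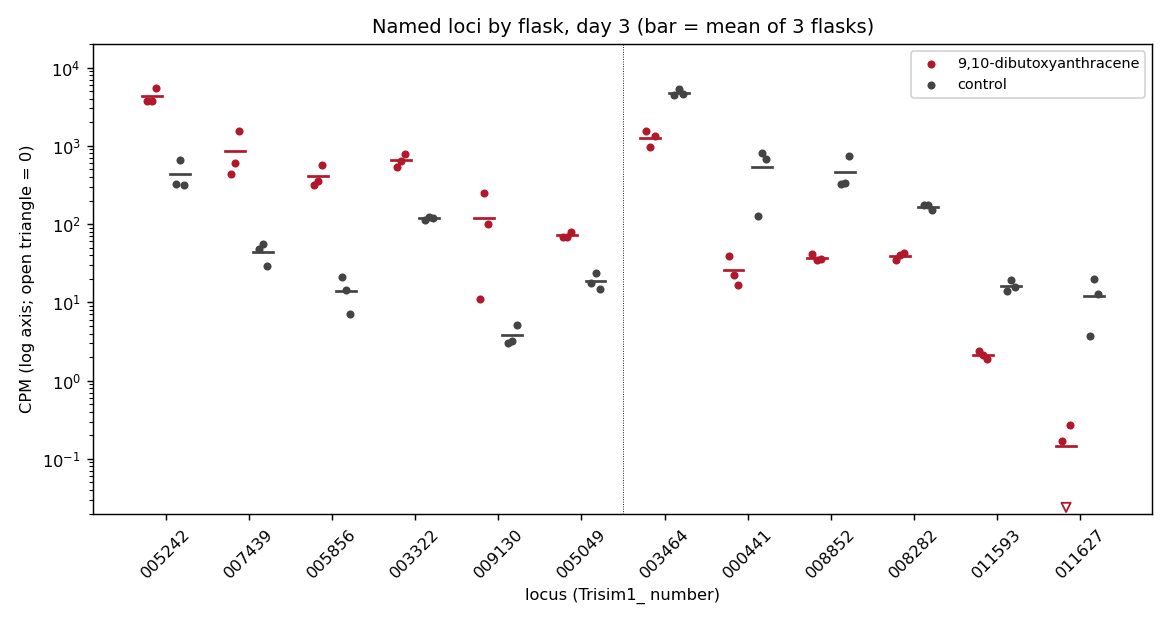
Level in CPM (log axis) of 12 named loci in each flask at day 3, 9,10-dibutoxyanthracene in red left of control in grey, with a bar at the mean of 3 flasks and an open triangle for 0; loci left of the dotted line rose and those right of it fell. The choice of loci required that the groups not overlap at any of the 12. Trisim1_009130 with the compound spreads from 11.0 to 250 CPM.

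The loci that rose came to take a larger share of the RNA, and those that fell a much smaller one. With the compound at day 3, the 568 risers held 7.30%, 9.67% and 9.13% of all counts in flasks 1, 2 and 3, against 3.18%, 3.25% and 2.82% in the control. The 1172 fallers held 7.33%, 5.91% and 5.64%, against 19.2%, 19.1% and 18.5% in the control. As these loci were chosen by the same libraries, the shares describe the size of the change and carry no test. Libraries outside the comparison give the setting: the fallers held 18.6% ± 1.35 of counts with the compound and 31.3% ± 4.17 in the control at day 1 (SD, n = 3). They held 25.7% ± 4.86 with phenetole and 17.9% ± 4.66 with 4-phenoxybenzoic acid at day 3. The risers held 3.46% ± 0.232 with the compound and 2.78% ± 0.449 in the control at day 1. With phenetole they held 2.52% ± 0.419 at day 3, and with 4-phenoxybenzoic acid 3.86% ± 1.07, and 4.76% ± 0.436 with phenetole at day 1. In mycelium sampled in bulk, fewer hyphae of a kind and less RNA per hypha cannot be told apart.

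**Figure D3:**
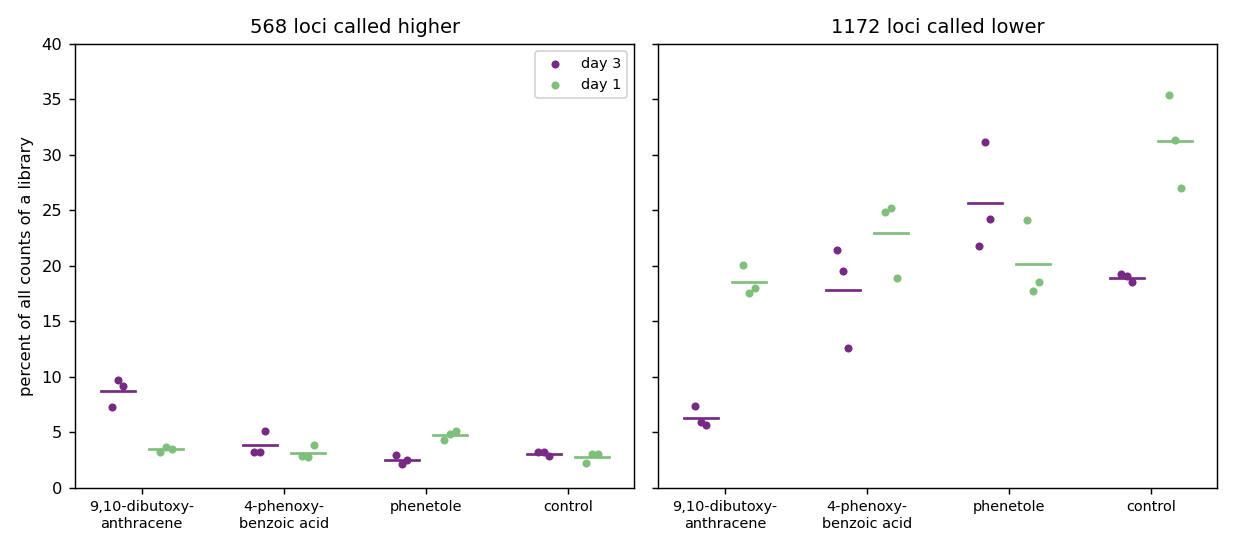
Percent of all counts of a library in the 568 loci called higher (left panel) and the 1172 called lower (right panel) at day 3, for each culture type, with day 3 in purple left of day 1 in green; points are flasks and bars are means of 3. With 9,10-dibutoxyanthracene at day 3 the risers hold 7.30% to 9.67% and the fallers 5.64% to 7.33% of counts.

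Some of the most abundant transcripts changed. Of the 50 loci with the highest mean CPM over the 6 libraries, 1 rose and 4 fell, 5 in all or 10.0%, beside 16.0% of all loci tested. An uncalled locus of the 50, chosen after its values were seen, differed by more than 4 of the 5 called ones: Trisim1_010091 (4439 bp) stood at 5259, 5843 and 10256 CPM with the compound, against 347, 680 and 2341 CPM in the control (log2 difference 2.66 ± 1.00, adjusted p = 0.0713, edgeR). The riser was Trisim1_009144 (3837 bp), at 4796, 5854 and 10021 CPM with the compound, against 2265, 2563 and 3495 CPM in the control (2.49-fold higher, adjusted p = 0.0396, edgeR). Its call was lost in 5 of 13 alternatives, with adjusted p-values up to 0.19 (without compound flask 3); the others were the fit of the compared groups alone and those without compound flask 2, control flask 1 or control flask 2. The fallers included Trisim1_003464 (1453 bp), at 1540, 970 and 1316 CPM, against 4420, 5367 and 4554 CPM (3.79-fold lower, adjusted p = 0.00336), which kept its call under all 13 alternatives other than the 2-fold test. Trisim1_006882 (2522 bp) fell less, to 3567 ± 1292 CPM against 8474 ± 2204 CPM (adjusted p = 0.0468), and lost its call in 9 of these alternatives. Trisim1_000288, the most abundant locus, fell to 6948, 5450 and 6789 CPM, against 22046, 16784 and 38289 CPM in the control (3.82-fold lower, adjusted p = 0.00738), a call lost by limma on FPKM with either pseudocount. Trisim1_000735, the remaining faller, is described with its neighbours in the numbering.

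Among abundant risers with separated groups, Trisim1_005242 (2409 bp) rose to 3713, 3775 and 5537 CPM against 325, 669 and 316 CPM in the control (9.59-fold, adjusted p = 0.00888, edgeR). It was also higher at day 1, at 264 ± 117 against 3.28 ± 2.40 CPM (79.2-fold, adjusted p = 3.57e-05, edgeR). The difference between its effects at the days did not pass (adjusted p = 0.0665, edgeR). At day 3 Trisim1_005242 stood at 839 ± 465 CPM with 4-phenoxybenzoic acid and 96.4 ± 101 CPM with phenetole. Trisim1_004507 (1638 bp) stood at 2712, 3191 and 4546 CPM with the compound, against 86.5, 125 and 930 CPM in the control (11.0-fold, adjusted p = 0.0433), with control flask 3 far above the other controls. Trisim1_001527 (2493 bp) averaged 2543 ± 880 CPM with the compound and 542 ± 251 CPM in the control, and Trisim1_011509 (1743 bp) 1701 ± 228 and 451 ± 143 CPM (adjusted p = 0.0228 and 0.0198). Trisim1_003506 (1350 bp), a faller, averaged 1051 ± 215 and 3197 ± 1351 CPM (adjusted p = 0.0215). Of these loci, Trisim1_005242 alone kept its call under each alternative other than the 2-fold test. Per length of transcript, on the scale of the deposited FPKM, which also divides by length, Trisim1_004507 with 2145 ± 598, the short Trisim1_000906 with 2026 ± 771 and Trisim1_005242 with 1818 ± 445 were at like levels with the compound, against 230 ± 288, 131 ± 64.8 and 178 ± 82.3 in the control.

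Called loci often lay next to each other in the gene numbering. Of 964 fallers among the numbered models whose next model was tested, 200 (20.7%) were followed by a faller, while a faller followed 10.9% of all 8730 such models. Of 469 risers, 66 (14.1%) were followed by a riser, beside 5.2% of all models. Runs of at least 4 consecutive models called in the same direction numbered 6 among the fallers, with 29 models in them, and 0 among the risers. Beside the longest, described next, the runs of fallers from Trisim1_007414 to Trisim1_007418 and from Trisim1_002008 to Trisim1_002012 held 5 models each, both with a median log2 change of −2.22. Trisim1_011627 and Trisim1_011626 belonged to a run of 3, to Trisim1_011628, with a median of −5.74. Among the risers there were 10 runs of 3, such as Trisim1_006620 to Trisim1_006622 with log2 changes between 2.28 and 2.62. Genomic positions were not used here, so the numbering stands in for them, and reads of overlapping neighbours could be shared.

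The longest run was Trisim1_000733 to Trisim1_000739, 7 consecutive models that all fell. Their log2 changes lay between −4.53 and −2.42, with a median of −3.63, and adjusted p-values (edgeR) between 0.00364 and 0.00955. Trisim1_000735 (1935 bp), the most abundant of the run, stood at 494, 373 and 359 CPM with the compound, against 2722, 3353 and 9117 CPM in the control, 11.1-fold lower. Trisim1_000733 (1150 bp) fell furthest, to 7.06, 2.62 and 6.36 CPM against 71.1, 89.5 and 209 CPM, 21.5-fold lower. The long models Trisim1_000734 (5038 bp), Trisim1_000738 (5585 bp) and Trisim1_000739 (4371 bp) fell 9.1-fold, 14.3-fold and 11.6-fold, and Trisim1_000737 (1788 bp) and the short Trisim1_000736 (336 bp) fell 11.0-fold and 4.85-fold. Control flask 3 was the highest of the controls at each of the 7 models, and the groups did not overlap at any of them.

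The models on either side of the run differed less at day 3. Trisim1_000740 stood at 68.8, 119 and 127 CPM with the compound, against 76.4, 72.6 and 76.6 CPM in the control (log2 difference 0.48 ± 0.33, adjusted p = 0.334, edgeR). On the other side, Trisim1_000732 differed by −1.98 ± 0.91 at 0.262 ± 0.0848 CPM with the compound and 1.09 ± 0.691 CPM in the control and did not pass (adjusted p = 0.133), while Trisim1_000731 had a log2 change of −1.79 and was called lower (adjusted p = 0.0195). Together the 7 models held 0.0515% ± 0.0141 of counts with the compound and 0.62% ± 0.286 in the control at day 3 (SD, n = 3). In other groups they held 0.318% ± 0.214 with the compound and 3.82% ± 1.16 in the control at day 1. With 4-phenoxybenzoic acid they held 0.403% ± 0.109 at day 1, also below the control, and with phenetole 1.74% ± 0.524. At day 3 they held 0.581% ± 0.596 with phenetole and 0.29% ± 0.232 with 4-phenoxybenzoic acid. Flasks 1, 2 and 3 with 4-phenoxybenzoic acid at day 3 held 0.511%, 0.312% and 0.048%. The value of flask 3 lies within the range of the compound's flasks at day 3, 0.0393% to 0.067%. All 7 also fell at day 1 with the compound, in libraries other than those compared at day 3, with adjusted p-values (edgeR) between 0.00128 and 0.00986. So did the 3 models before the run, Trisim1_000730, Trisim1_000731 and Trisim1_000732, with log2 changes of −2.41, −3.23 and −5.62 at day 1. Without compound flask 2, Trisim1_000734 and Trisim1_000737 lost their day 3 calls (adjusted p = 0.0521 and 0.0556).

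The longest runs of risers had 3 models, and the one with the largest change rested on a single flask. Trisim1_011235 (2891 bp), Trisim1_011236 (1536 bp) and Trisim1_011237 (1014 bp) stood at 866, 1933 and 1804 CPM in compound flask 2. In compound flasks 1 and 3 they stood at 31.5 and 27.8, 42.1 and 32.3, and 33.4 and 41.7 CPM, within or near the controls' ranges of 19.2 to 35.1, 28.2 to 77.1 and 33.7 to 59.7 CPM. The groups overlapped at all 3 models. Their adjusted p-values (edgeR) of 0.00781, 0.0198 and 0.0148 became 0.89, 0.599 and 0.792 without compound flask 2, and the log2 differences then were 0.08, −0.51 and −0.27. The next model, Trisim1_011238, was also highest in that flask, at 424, 2872 and 791 CPM with the compound against 105, 264 and 757 CPM in the control, and did not pass (adjusted p = 0.0934).

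**Figure D4:**
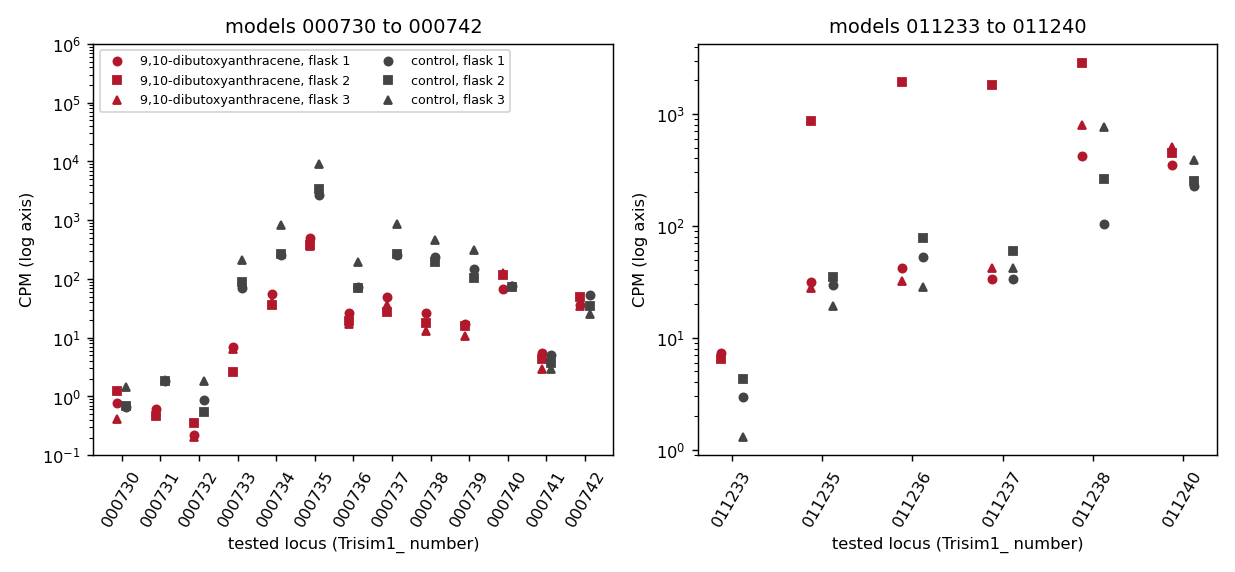
Level in CPM (log axis) by flask, 9,10-dibutoxyanthracene in red left of control in grey, for the tested models around the run of 7 fallers (left panel) and around the run of 3 risers (right panel). The control flasks lie above the compound flasks from Trisim1_000733 to Trisim1_000739, while at Trisim1_011235 to Trisim1_011237 compound flask 2 alone stands at 866 to 1933 CPM.

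The same compound at day 1, set against the day 1 control, gives a second view of these loci in other libraries. These are not among the libraries compared at day 3, but the filter and the spread of the fit draw on all 24. Whether flasks of the same number were sampled at both days is not given. At day 1 the edgeR test called 3442 loci, 31.7% of those tested, 14.9% higher and 16.9% lower. Of the 1172 fallers of day 3, 551 (47.0%) also fell at day 1, 73 (6.23%) rose and 548 were not called. Of the 568 risers, 139 (24.5%) also rose at day 1, 43 (7.57%) fell and 386 were not called. The median day 1 change was −0.86 for the fallers and 0.33 for the risers on the log2 scale, beside −0.0024 for all loci tested. A call at a single day does not show that the days differ, and the difference of the effects itself passed the edgeR test at 1482 loci (13.7%), among them 253 fallers (21.6%) and 166 risers (29.2%) of day 3. The difference contains the day 3 change by which the fallers and risers were chosen, and this choice raises their shares.

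Some loci passed at day 3 and at day 1 with the same sign. Trisim1_003322 rose by 2.47 ± 0.33 at day 3 and by 2.40 at day 1 on the log2 scale (adjusted p = 1.62e-05 at day 1, edgeR), and Trisim1_002254 fell by 2.83 and by 2.59 (adjusted p = 1.06e-05 at day 1). For both, the difference between the days did not pass (adjusted p = 0.936 and 0.776). Others differed from the control at day 3 and not detectably at day 1. Trisim1_005856 averaged 408 ± 134 CPM with the compound and 14.1 ± 6.87 CPM in the control at day 3, and 10.2 ± 4.82 and 12.5 ± 3.81 CPM at day 1, and the days differed (adjusted p = 5.1e-05). Likewise Trisim1_008852 averaged 37.2 ± 3.35 and 467 ± 239 CPM at day 3, and 591 ± 293 and 731 ± 302 CPM at day 1 (adjusted p of the difference 0.00123).

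In all, 116 loci were called in opposite directions at the days. Trisim1_002853 (1035 bp) stood at 1.00 ± 0.686 CPM with the compound and 18.0 ± 9.35 CPM in the control at day 3, and at 21.8 ± 7.77 and 0.365 ± 0.341 CPM at day 1. It thus fell by 4.17 at day 3 and rose by 5.82 at day 1 on the log2 scale, the largest such difference (adjusted p of the difference 3.28e-05, edgeR). Trisim1_009003 (396 bp) stood at 1.16 ± 0.324 and 10.0 ± 3.92 CPM at day 3, and at 24.2 ± 14.9 and 4.31 ± 1.03 CPM at day 1. Trisim1_008086 (1410 bp) stood at 30.7 ± 10.5 and 117 ± 79.5 CPM at day 3, and at 270 ± 88.4 and 6.90 ± 8.05 CPM at day 1. Its fall at day 3 (adjusted p = 0.0446, edgeR) was lost in 6 of 13 alternatives. With 4-phenoxybenzoic acid at day 1, Trisim1_002853, Trisim1_009003 and Trisim1_008086 stood at 7.61 ± 2.10, 8.61 ± 2.44 and 345 ± 99.5 CPM, also above the control means. With phenetole at day 1 they stood below those means, at 0.084 ± 0.00953, 3.64 ± 2.10 and 0.216 ± 0.305 CPM. In the other direction, Trisim1_007439 stood at 866 ± 608 and 44.3 ± 13.8 CPM at day 3, and at 22.8 ± 18.3 and 172 ± 186 CPM at day 1, and Trisim1_000906 at 681 ± 255 and 45.2 ± 22 CPM, and at 25.1 ± 10.6 and 129 ± 160 CPM. In both, the compound flasks were the higher ones at day 3 and had the lower mean at day 1, where the day 1 controls scattered widely.

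**Figure D5:**
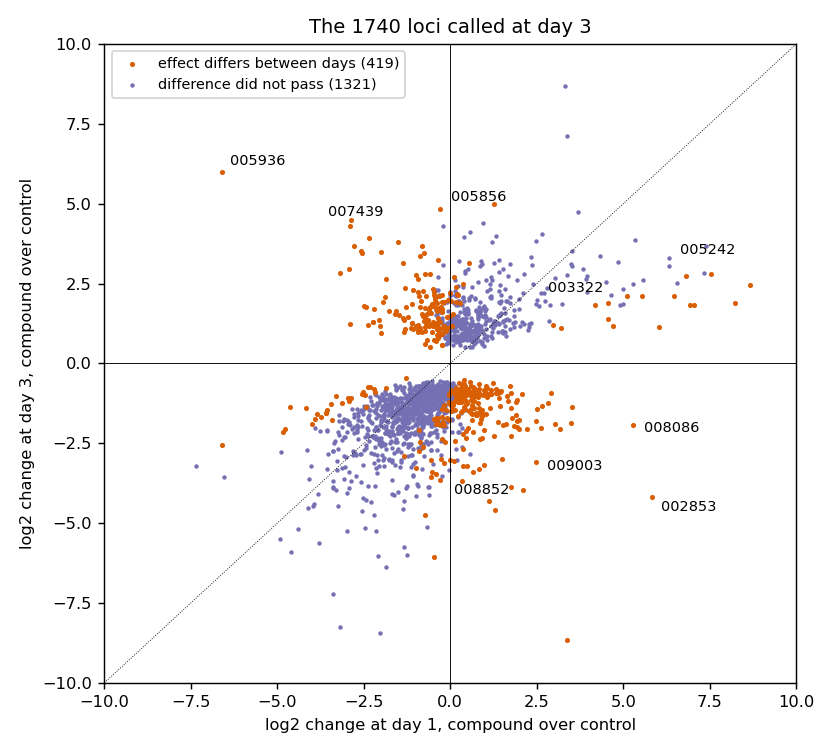
Log2 change with 9,10-dibutoxyanthracene over control at day 3 (vertical) against that at day 1 (horizontal) for the 1740 loci called at day 3; orange marks the 419 whose effect differed between the days and purple the 1321 whose difference did not pass. Points on the dotted line changed equally at both days, and those in the upper left and lower right changed in opposite directions.

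Set beside the other compounds, whose doses differ, most called loci were at their extreme with 9,10-dibutoxyanthracene at day 3. This group had the highest mean of the 8 groups at 412 (72.5%) of the risers, beside 19.9% of all loci tested, and the lowest mean at 934 (79.7%) of the fallers, beside 22.2%. The choice of loci by this group raises these shares, and no test was made. Trisim1_005856 stood at 33.1 ± 25.9 CPM with 4-phenoxybenzoic acid and 9.61 ± 0.579 CPM with phenetole at day 3, beside the 408 ± 134 CPM of 9,10-dibutoxyanthracene. Trisim1_008852 stood at 345 ± 193 and 193 ± 53.3 CPM with these compounds, beside 37.2 ± 3.35 CPM. Some risers were as high or higher with phenetole at day 1, where Trisim1_004507 stood at 6890 ± 1914 CPM, Trisim1_009144 at 7851 ± 1075 CPM and Trisim1_000906 at 1300 ± 981 CPM.

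Loci outside the numbered gene models changed as well. Of 645 such loci tested, 53 (8.22%) rose and 31 (4.81%) fell, beside 5.05% and 11.2% of the numbered models, so that rises outnumbered falls among them. Among those with separated groups, the one with the largest fall, 611 bp long, stood at 0.224, 0.154 and 0.406 CPM with the compound, against 1.47, 16.2 and 10.8 CPM in the control (adjusted p = 0.0105, edgeR). The one with the largest rise, 674 bp long, stood at 2.35, 2.0 and 0.947 CPM, against 0, 0 and 0.345 CPM (adjusted p = 0.0247), and lost its call in 4 of 13 alternatives.

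For the 9102 loci without a call the data were informative to a varying degree. The 95% interval of the log2 change lay within a 2-fold change in either direction at 3407 of them, and reached beyond 2-fold at 5695 (62.6%). Without adjustment, 3433 loci had a p under 0.05, the 1740 called loci among them.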

How the data were processed

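The authors made the counts with featureCounts 1.5.0-p3, per the submitters' processing notes. Aligner, genome build, annotation and strand setting were not stated, so overlapping and antisense genes cannot be told apart. Libraries of poly-A RNA gave 150 bp paired-end reads, per the labels' protocols. The deposited files hold raw counts per locus, and FPKM values that the authors had scaled. Counts divided by FPKM and by median-of-ratios library sizes gave 12728 lengths, all whole within 0.01 bp.

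The count test was edgeR 4.0.16 in R 4.3.3: filterByExpr (minimum count 10 over the 8 groups), TMM, and a quasi-likelihood fit with a coefficient per group to all 24 libraries, so that the spread is shared over groups. P-values were adjusted by Benjamini-Hochberg over 10842 loci; a locus was called at an adjusted p under 0.05. SE is the log2 change fitted without the prior count, divided by the root of F. Intervals of the log2 change are centred on that value, not on the printed change, and are approximate. Folds are ratios of pooled scaled counts; against 0 counts a floor of 3 counts over the group gives a lower bound. Counting intervals (exact binomial, 95%) cover counting error only. Since the labels do not state how independent the flasks were, the tests weigh differences only against the spread among these samples, part of which may be technical.

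Alternatives were DESeq2 1.42.0, its size factors in edgeR, no filter, the compared groups alone, the flask number as a block, limma 3.58.1 on log2(FPKM + 1) and log2(FPKM + 0.1), a 2-fold threshold (glmTreat), and each day 3 flask left out. The test was tried on simulated data. Named loci are those called, with separated groups and a minimum of 10 counts per library on the higher side: per direction the 10 with the largest change, the 5 most abundant, the 4 with the smallest p, and the 2 outside the models with the largest change. To these come the longest run of consecutive models per direction, loci at 0 in a whole group, and per pattern the 3 of opposite direction at the days with the largest difference. Loci outside the models are given by length. The members, lists and rules were chosen with earlier results of these data known. All columns belong to the 24 samples.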

Additional observations from a re-analysis of the deposited data

Results flagged for a closer look

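The effect of 9,10-dibutoxyanthracene differed between day 3 and day 1 at 1482 loci by the test of the difference itself (edgeR, adjusted p under 0.05), and 20 of the 50 named loci were among them. The named loci were chosen by their day 3 change, and some by this difference, which raises that number. Values are the log2 change at day 3 minus that at day 1.

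Of the loci that rose at day 3, the difference was 12.6 for Trisim1_005936 (a fitted value that rests on 0 counts with the compound at day 1 and depends on the prior count), 7.20 for Trisim1_007439, 6.45 for Trisim1_011236, 6.27 for Trisim1_000906, 5.32 for Trisim1_011237, 5.13 for Trisim1_005856, 4.23 for Trisim1_011235 and 3.72 for Trisim1_009130. It was 2.71 for Trisim1_001527, 2.08 for Trisim1_009144, 1.77 for Trisim1_005049 and 1.62 for Trisim1_011839. Those of Trisim1_011235, Trisim1_011236 and Trisim1_011237 rest on compound flask 2 of day 3. That of Trisim1_005936 rests on control flask 3 at day 1, which held all 26 control counts of that day. All 3 control counts of day 3 at this locus also lay in flask 3. Its day 1 change did not pass (adjusted p = 0.0623, edgeR).

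Of the loci that fell at day 3, it was −9.99 for Trisim1_002853, −7.20 for Trisim1_008086, −5.59 for Trisim1_009003, −4.02 for Trisim1_004560, −3.34 for Trisim1_008852, −1.56 for Trisim1_011593 and −1.20 for Trisim1_008282, and −4.0 for a locus of 2348 bp outside the gene models.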

How the results depend on the processing

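The day 3 count of 1740 was 90 (13 higher, 77 lower) against a 2-fold threshold and 703 to 1387 with a flask left out. Higher calls (568) numbered 954 with the compared groups alone, 942 with DESeq2, 937 with the flask block, 939 with limma on log2(FPKM + 1), and 192 to 497 with a flask left out; lower calls (1172) 510 to 933. Of all calls, 44.9% were higher with the compared groups alone and 32.6% in the fit of all groups. The median log2 change over loci stayed between −0.05 and 0.04 under all settings. The day 1 count of 3442 was 2219 with the compared groups alone. The 2-fold count of 90 was 143 with the block and 2 to 155 with a flask left out (2 without compound flask 3, 4 without compound flask 2, 22 without control flask 2, 51 without control flask 3, 155 without control flask 1). The 1482 loci that differed between days were 1048 to 1892.

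With the flask number as a replicate block, edgeR called 2310 loci at day 3. Deviations of same-numbered compound and control flasks of day 3 correlated at 0.154, −0.137 and 0.113, and not every flask correlated best with its own number. Such weak correlations from these groups alone cannot decide whether flasks of equal number are related, and the labels do not say. Alternatives for day 1 and the 2-fold test were added after seeing the data.

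Of the 50 named loci, 28 kept direction and call under all 13 alternatives besides the 2-fold test, which 21 passed. Without compound flask 2, Trisim1_011236 and Trisim1_011237 reversed to −0.51 and −0.27, and without compound flask 3 they were at 4.24 and 4.35. The causes of these changes were not tested. Leaving a flask out brings fewer samples, and the 2-fold test a higher bar, by construction. Depth limits loci of few counts most.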

Other observations

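Several of the most abundant loci had separated groups without passing the test; they were picked after their values were seen. Trisim1_009042 (4009 bp) stood at 15699, 14096 and 23362 CPM with 9,10-dibutoxyanthracene, against 5547, 11646 and 9722 CPM in the control at day 3 (log2 difference 0.98 ± 0.58, adjusted p = 0.25, edgeR). Trisim1_011497 (1731 bp) stood at 15136, 13426 and 22845 CPM, against 3766, 7936 and 9769 CPM (1.26 ± 0.63, adjusted p = 0.177). Trisim1_001356 (2441 bp) stood at 6611, 6045 and 8323 CPM, against 9486, 16792 and 20886 CPM (−1.17 ± 0.44, adjusted p = 0.0709). Trisim1_002682 (2809 bp) stood at 4491, 4147 and 7768 CPM, against 173, 615 and 1772 CPM (2.68 ± 0.97, adjusted p = 0.0637). At Trisim1_002899 (255 bp) the groups overlapped, and the control flasks alone ranged from 1917 to 17743 CPM, highest in flask 3.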
